A study of Homo sapiens with 2 samples.

Results

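A set of 10 host genes of U2 snRNA copies is described here, as seen in an irCLIP experiment on SNRPA1: RUVBL1, LINC00910, RUBCNL, IFT88, GSKIP, GREB1, HDAC8, SKA2, RHOBTB1 and KIF24. They were chosen by name, with their peak heights known, and are 10 of the 1286 genes with a peak in the list that gives peak heights. For each gene all rows of that list were taken, with every interval of a second list, made with the caller CLIPper, that lay within 250 nt on the same strand. Such a group of peaks and intervals is called a footprint. The 10 genes held 15 rows of the height list, and their tallest footprints held 70 distinct CLIPper intervals. The whole height list formed 1352 footprints.

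SNRPA1 belongs to the U2 snRNP, the RNA-protein complex whose U2 snRNA pairs with the intron branch site during splicing. With its partner SNRPB2 it binds a stem-loop near the 3′ end of the U2 snRNA. The human genome holds, besides the functional U2 genes, many U2-derived sequences annotated as pseudogenes, and some lie inside other genes. Each of the 10 genes contains 1 such copy in the RefSeq table of GRCh38.p14 genes, all annotated as pseudogenes.

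The study crosslinked RNA to endogenous SNRPA1 in MDA-231-LM2 cells, a human breast cancer line selected for spread to the lung, and sequenced what an antibody to SNRPA1 recovered. The 2 biological replicates form 1 group with no other treatment, and no control immunoprecipitate was analysed here. Neither list keeps the replicates apart, the depth per library is unknown, and no test between groups or spread between replicates could be computed. Intervals given for tags and reads are 95% Poisson intervals and cover counting error only. The lists are in hg19 and the gene table is not. Whether a footprint lies on the U2 copy itself was therefore not analysed here, and neither was any sequence. Reads from near-identical copies are hard to place, and how the authors placed them is not given here, so the copy of origin is uncertain for every value below.

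The tallest peaks ranged from 47 to 586 tags over the 10 genes, with a median of 195.5 tags. A peak of 20 tags or more was present in all 10, against 3.73% of all genes in the height list, a comparison fixed by the choice of genes on height. RUVBL1, which encodes an AAA+ ATPase of chromatin remodelling and snoRNP assembly complexes, had 586 tags (540 to 635). The long noncoding RNA gene LINC00910 had 505 tags (462 to 551). The 95% intervals of these 2 genes overlapped, and their difference was not tested. RUBCNL, an autophagy regulator gene, had 336 tags (301 to 374). IFT88, needed for transport inside cilia, had 281 tags (249 to 316), and GSKIP, which encodes a protein that binds GSK3B and anchors protein kinase A, had 269 tags (238 to 303). Neighbouring intervals overlapped among these 3 genes, while GSKIP lay clear of the next gene.

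The oestrogen-responsive gene GREB1 had 122 tags (101 to 146). HDAC8, a histone deacetylase gene, had 102 tags (83.2 to 124). SKA2, which encodes a kinetochore protein, and RHOBTB1 each had 60 tags (45.8 to 77.2). KIF24, a kinesin gene that acts in cilium formation, was lowest with 47 tags (34.5 to 62.5). The height intervals of GREB1 and HDAC8 overlapped, as did those of SKA2, RHOBTB1 and KIF24, and HDAC8 lay clear of the last 3. Height was not the sole guide to which genes were chosen: among other hosts of a U2 copy, TENM3 with 49 tags stood above KIF24 and DHX32 with 43 tags just below it.

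The strongest CLIPper interval of each footprint overlapped the tallest peak in all 10 genes. It held 1217 reads in RUVBL1 (1150 to 1287), 962 in RUBCNL (902 to 1025) and 714 in LINC00910 (663 to 768). IFT88 followed with 517 reads (473 to 564), KIF24 with 437 (397 to 480) and GSKIP with 370 (333 to 410). By reads KIF24 thus ranked 5 of the 10, whereas by tags it ranked 10. HDAC8 had 226 reads (197 to 257), GREB1 147 (124 to 173), SKA2 101 (82.3 to 123) and RHOBTB1 81 (64.3 to 101). An interval of 100 reads or more was present in 9 of the 10 footprints, against 2.00% of all footprints of the height list, most of which are low. Among footprints of 20 tags or more it was present in 3 of 7 in other hosts of a U2 copy and in 8 of 31 in genes without one. Because both lists come from the same libraries, this is no independent support for the heights.

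The ratio of CLIPper reads to tags was 9.30 in KIF24, and between 1.20 in GREB1 and 2.86 in RUBCNL in the other 9 genes. Over the 10 genes its median was 1.76, against 1.67 over all footprints of the height list with reads. Across the 10 genes, tags and reads had a Spearman correlation of 0.79 and, after log10 transformation, a Pearson correlation of 0.80, a description of sites that share their libraries. The plot of tags and reads by gene shows KIF24 as the one gene of the 10 whose 2 values stand far apart.

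**Figure D1:**
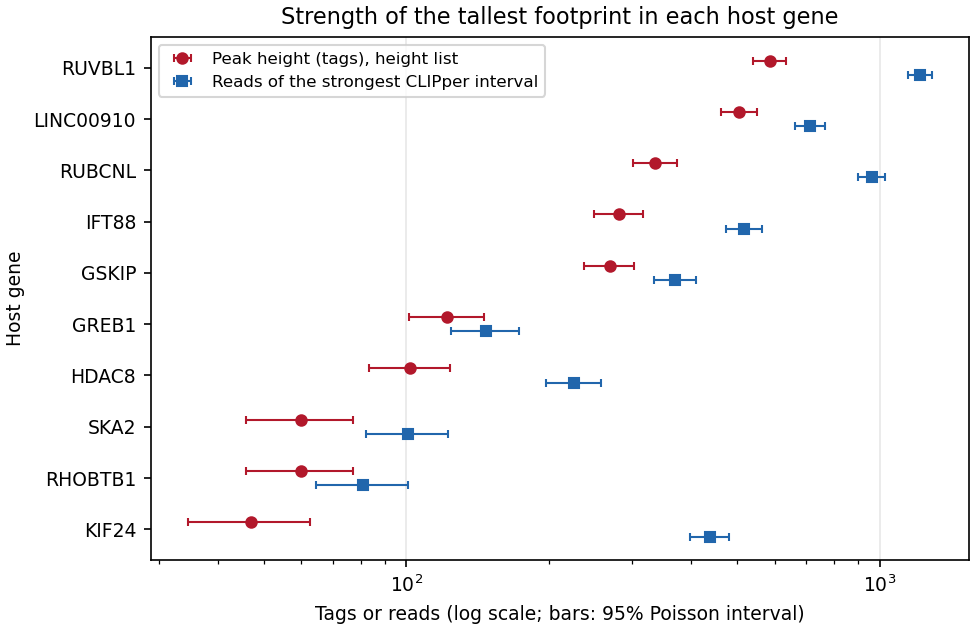
Height of the tallest peak (circles, tags) and reads of the strongest CLIPper interval (squares, reads) in each of the 10 host genes, on a log scale, with bars for 95% Poisson intervals. RUVBL1 is highest by both measures (586 tags, 1217 reads), RHOBTB1 is lowest by reads (81), and KIF24 is lowest by tags (47) but has 437 reads.

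The tallest peaks had nearly the same width, 32 to 34 nt, but the footprints around them fell into 2 sizes. Of the 10, 6 were narrow, with spans of 42 to 55 nt, and 4 were wide, with spans of 147 to 171 nt. No span of the 10 lay between 55 and 147 nt. Footprints in other hosts of a U2 copy did, at EGFEM1P (102 nt) and PCDH11X (128 nt). The border of 100 nt between narrow and wide was chosen after the values were seen. A span of 100 nt or more was present in 4 of the 10 footprints, against 1.63% of all footprints of the height list. Among footprints of 20 tags or more, such a span was present in 2 of 7 in other hosts of a U2 copy and in 5 of 31 in genes without one. Wide footprints were those of LINC00910 (171 nt), HDAC8 (163 nt), RUVBL1 (152 nt) and RUBCNL (147 nt). Narrow ones were those of GSKIP (55 nt), SKA2 (48 nt), GREB1 (47 nt), KIF24 (46 nt), IFT88 (45 nt) and RHOBTB1 (42 nt). Height did not separate the sizes, since HDAC8 was wide at 102 tags and IFT88 narrow at 281 tags. Span and height had a Spearman correlation of 0.58 over the 10 genes, given as a description.

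Set beside the length of the U2 copy in the gene table, the wide footprints spanned 78.6% to 90.5% of it and the narrow ones 25.3% to 41.6%. These are ratios of lengths and do not show that a footprint lies on the copy. The copies were RNU2-4P in LINC00910 (189 nt), RNU2-68P in HDAC8 (191 nt), RNU2-37P in RUVBL1 (174 nt) and RNU2-6P in RUBCNL (187 nt). Hosts with narrow footprints contained RNU2-33P (GSKIP, 189 nt), RNU2-58P (SKA2, 183 nt), RNU2-7P (IFT88, 178 nt), RNU2-72P (RHOBTB1, 163 nt), RNU2-50P (KIF24, 143 nt) and RNU2-13P (GREB1, 113 nt). Copies of 174 nt or more were thus found with both sizes, and the 3 shortest copies all with narrow footprints. Copy length and span had a Spearman correlation of 0.70 over the 10 genes, again a description.

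The wide footprints shared the place of their tallest peak. Its middle lay 109 nt from the 5′ edge of the footprint in LINC00910, 100.5 nt in RUVBL1, 92.5 nt in HDAC8 and 91 nt in RUBCNL. From the 3′ edge it lay 51.5 to 70.5 nt. All 4 tallest peaks therefore stood in the 3′ part, at 56.7% to 66.1% of the span counted from the 5′ edge. In the narrow footprints the peak filled most of the span, and its middle lay at 46.7% to 59.8%. The other 18 footprints of the height list that spanned 100 nt or more had their tallest peak at 7.75% to 94.5% of the span, with a median of 58.4%. One of these 18, at WDR74 with RNU2-2, had its peak of 1255 tags 116.5 nt from the 5′ edge of 178 nt, at 65.4%. By the tallest peak of the height list, the remaining U2 hosts among the 18 lay outside the 56.7% to 66.1% of the 4 wide footprints. EGFEM1P had its peak of 42 tags at 44.6% of 102 nt, and PCDH11X its peak of 5 tags at 12.9% of 128 nt. By CLIPper reads PCDH11X was not apart. Its strongest interval, with 717 reads, lay 80.5 nt from the 5′ edge, in the 3′ part as in the 4 wide footprints. In EGFEM1P the strongest interval lay 36 nt from the 5′ edge.

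Within the wide footprints, signal 5′ of the tallest peak was unequal between genes. Counting intervals whose middle lay 40 nt or more 5′ of the middle of the peak, a distance set after the values were seen, the strongest held 458 reads in RUBCNL, 47.6% of the maximum of that footprint. In LINC00910 it held 446 reads (62.5%), in HDAC8 137 reads (60.6%) and in RUVBL1 63 reads (5.18%). By CLIPper reads RUVBL1, the tallest of the 10, thus had the weakest 5′ part of these 4 relative to its maximum. This order did not hold by tags. The height list had a 5′ peak of 44 tags beside 586 in RUVBL1 and of 43 beside 505 in LINC00910. It had no 5′ peak in RUBCNL or HDAC8. A 3′ interval at the same distance was present in all 4, with 237 reads in LINC00910, 55 in RUVBL1, 51 in RUBCNL and 43 in HDAC8. The distance left out strong 3′ intervals slightly nearer to the peak, with 460 reads at 35 nt in RUBCNL and 354 at 38 nt in LINC00910. The 137 reads 5′ in HDAC8, at 42 nt, were only just counted. These values therefore do not show that the 3′ side was weaker than the 5′ side. The narrow footprints are too short to hold an interval at that distance.

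The height list recorded only some of these flanks as peaks. In RUVBL1 a second peak of 44 tags (32.0 to 59.1; chromosome 3, 127794058 to 127794091, minus strand) lay 83.5 nt 5′ of the tallest, where CLIPper had 63 reads. In LINC00910 a peak of 23 tags (14.6 to 34.5) lay 53 nt 5′ and one of 43 tags (31.1 to 57.9) lay 92 nt 5′, both on the minus strand of chromosome 17 (41464705 to 41464738 and 41464744 to 41464777). CLIPper had up to 433 and 446 reads at these 2 sites, so reads exceeded tags there far more than at the main peak, with 714 reads and 505 tags. In HDAC8 the additional peak of 17 tags (9.90 to 27.2) lay 49.5 nt 3′, with 43 CLIPper reads, and no peak was listed in its 5′ part. RUBCNL had 1 row in the height list, although its 5′ part held 458 reads. A further HDAC8 peak of 5 tags, 15108 nt 3′ of the tallest, formed a footprint of its own with 8 reads.

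**Figure D2:**
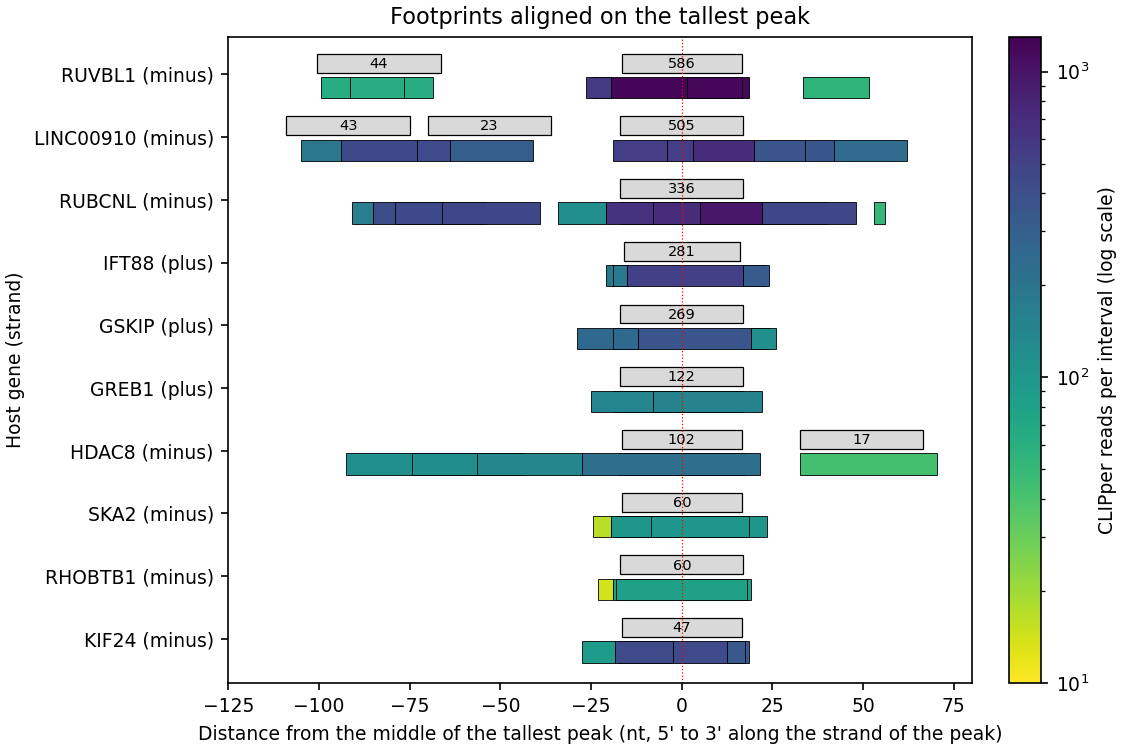
Footprints of the 10 host genes aligned on the middle of their tallest peak and drawn 5′ to 3′ along the strand of the peak, with distance in nt. Grey boxes are peaks of the height list with their height in tags, and coloured boxes are CLIPper intervals coloured by reads on a log scale. RUVBL1, LINC00910, RUBCNL and HDAC8 extend more than 90 nt to the 5′ side, and the other 6 genes show a single block of 42 to 55 nt.

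CLIPper divided the footprints into 3 to 17 distinct intervals, with a median of 5.5. At least 3 intervals were present in all 10, against 2.81% of all footprints of the height list, whose median was 1. Among other hosts of a U2 copy with 20 tags or more, 4 of 7 footprints had at least 3. Of such tall footprints in genes without a copy, 12 of 31 did. RUBCNL had 17 intervals, LINC00910 10, RUVBL1 9 and HDAC8 7. The narrow footprints had 3 in RHOBTB1, 4 each in SKA2 and GREB1, 5 each in IFT88 and GSKIP, and 6 in KIF24. Most of these intervals touched or overlapped each other. Joined, they formed 1 block in each of the 6 narrow footprints, 2 blocks in LINC00910 and HDAC8 and 3 in RUVBL1 and RUBCNL, so the number of intervals mostly counts divisions of continuous signal. Gaps between blocks measured 42 nt and 15 nt in RUVBL1, 22 nt in LINC00910, 11 nt in HDAC8 and 5 nt at both gaps in RUBCNL. The files do not say whether touching intervals share reads, so their reads were not added.

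Part of the interval count came from listing one site under several Ensembl identifiers. Of the 10 footprints 9 were listed under at least 2 identifiers, against 6.66% of all footprints of the height list. RUBCNL had 3 identifiers, LINC00910 had 1, and the other 8 genes had 2. Which genes these identifiers belong to is not given in the files or the gene table. If the additional ones are the U2 copies themselves, their presence follows from choosing hosts of such copies, and this was not tested. None of the 10 additional identifiers had an interval elsewhere in the CLIPper list. The widest identifier of each gene had none elsewhere either, except in HDAC8 (2) and SKA2 (1), so this hardly sets the additional ones apart. In the 9 genes the identifiers gave the same maximum in 6, and differed in RUBCNL (962, 962 and 959 reads), HDAC8 (226 and 193) and GREB1 (147 and 145). Identifiers were ordered by extent, from first to last interval with gaps included, so the second could not extend farther than the widest. The second extended over 41 against 151 nt in RUVBL1 and 92 against 163 nt in HDAC8, for example. Both extended over 147 nt in RUBCNL, where the third extended over 119 nt. With only the identifier of widest extent, a setting added with the values known, the median fell to 3.5 intervals, and 7 of the 10 footprints had at least 3, against 2.22% of all footprints.

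**Figure D3:**
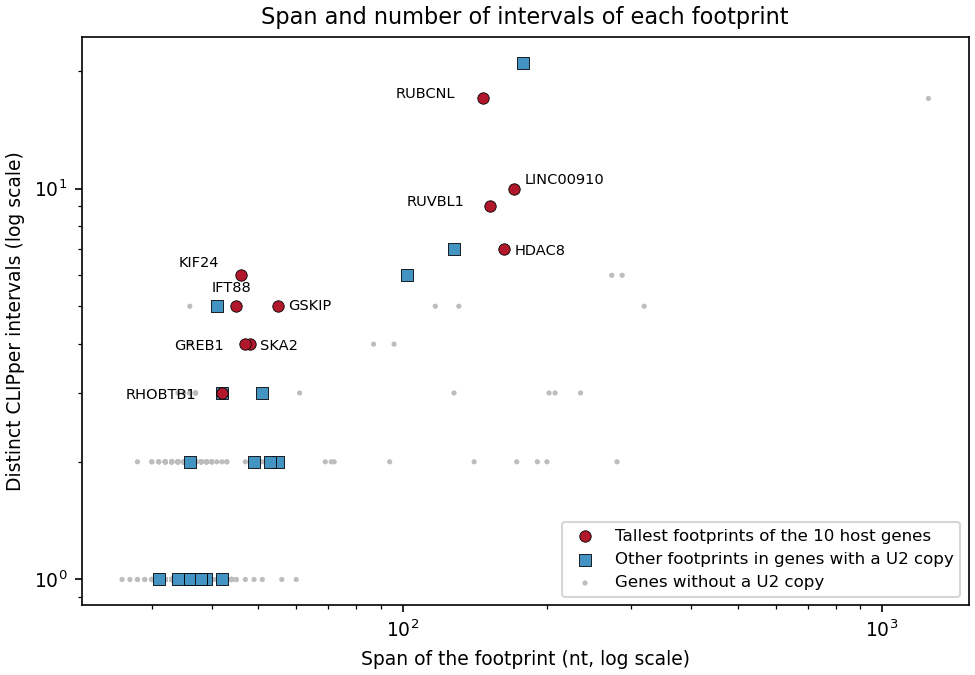
Span in nt against number of distinct CLIPper intervals for every footprint of the height list with at least 1 interval, both on log scales. Red circles are the tallest footprints of the 10 host genes, blue squares other footprints in genes that contain a U2 copy, and grey points the rest. The 4 wide host genes sit at 147 to 171 nt with 7 to 17 intervals, and the 6 narrow ones at 42 to 55 nt with 3 to 6.

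The footprints had CLIPper intervals on 1 strand only, within the distances searched. The footprints were on the minus strand in 7 genes, which included all 4 wide ones, and on the plus strand in IFT88, GSKIP and GREB1. A host strand was available for 9 of the 10 genes and matched the footprint in all 9, against 99.7% of all rows of the height list with a known host strand. A match is thus nearly universal in the list and says nothing about these genes. No CLIPper interval lay within 250 nt on the opposite strand in any of the 10, nor in any of the 1352 footprints. The strand of the U2 copies is not in the gene table and was not used here.

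Within the 10 genes the deposited P values did not follow height. The lowest listed value, 1e-100, was given to 6 of the 10 tallest peaks, those of RUVBL1, IFT88, GSKIP, GREB1, SKA2 and KIF24, against 19.6% of all genes in the height list. The same value was given to 22 of the 31 footprints of 20 tags or more in genes without a U2 copy, and to 4 of the 7 in other hosts of a U2 copy. LINC00910 had 1.1e-09 at 505 tags and RUBCNL 1.85e-09 at 336 tags, higher P values than the 1e-100 of KIF24 at 47 tags. RHOBTB1 had 2.54e-09 and HDAC8 4.68e-09. In LINC00910 the peaks of 505, 43 and 23 tags carried the same P. In the CLIPper list 40 of the 83 entries at the 10 footprints had p listed at 0, as had 106 of 8053 in the whole list.

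For position, the tallest peaks in hg19 were at chromosome 3, 127793975 to 127794007 (RUVBL1, minus strand), chromosome 17, 41464652 to 41464685 (LINC00910, minus) and chromosome 13, 46948618 to 46948651 (RUBCNL, minus). IFT88 followed at chromosome 13, 21186381 to 21186412 (plus), GSKIP at chromosome 14, 96851052 to 96851085 (plus) and GREB1 at chromosome 2, 11701334 to 11701367 (plus). The HDAC8 peak was at chromosome X, 71596897 to 71596929 (minus), and that of SKA2 at chromosome 17, 57206772 to 57206804 (minus). RHOBTB1 had its peak at chromosome 10, 62672638 to 62672671 (minus), and KIF24 at chromosome 9, 34282576 to 34282608 (minus). Whether these positions are exonic or intronic was not analysed here, because no annotation of that build was used.

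The gene table held 47 genes that contain a U2 copy, of which 25 had a peak, the 10 described here and 15 others. Of those 15, 7 reached 20 tags: WDR74, a ribosome biogenesis factor gene (1255 tags), TENM3 (49), DHX32 (43), EGFEM1P (42), RBM46 (36), PTER (31) and ZYG11B (26). The 10 genes had a median of 403.5 reads, 5.5 intervals and a span of 51.5 nt. These 7 had a median of 73 reads, 3 intervals and a span of 53 nt. All 7 were listed under 2 identifiers. ZYG11B had 279 reads at 26 tags, a ratio of 10.7, beside 9.30 in KIF24. PCDH11X, named after its values were seen, had 717 reads in a footprint of 128 nt whose peak had 5 tags.

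Of genes without a U2 copy, 31 had a peak of 20 tags or more, with a median of 28 tags, 53 reads, 2 intervals and a span of 39 nt. At least 3 intervals were present in 12 of these 31 footprints, and 2 or more identifiers in 1 (HAUS7, named after its values were seen). Their median height was below the 195.5 tags of the 10, although some of the 31 stood above single members, and among the 7 with 50 tags or more, 5 had at least 3 intervals. The tallest were SLC6A15 (202 tags, 333 reads, 3 intervals, 61 nt), FGD6 (161 tags, 197 reads, 2 intervals, 37 nt) and KIAA1217 (120 tags, 128 reads, 5 intervals, 36 nt). SLC6A15 encodes a neutral amino acid transporter. None of these differences was tested, since the lists give 1 group without separate replicates.

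Among 38 other genes with a peak of 20 tags or more, the nearest to the median of the 10 in span, number of intervals and height were KIAA1217, SLC6A15, MYO1D, XKR4 and FGD6. Their distances over these 3 log2 measures were 0.80, 0.92, 1.31, 1.35 and 1.54. None of these 5 contains a U2 copy by the gene table, and each was listed under 1 identifier. They had 2 to 5 intervals, and their spans were 36, 37 or 61 nt. These lay outside the 42 to 55 nt of the narrow footprints, but that range is not particular to the 10. Of other U2 hosts, TENM3 (42 nt), DHX32 (49 nt), PTER (53 nt) and ZYG11B (55 nt) lay within it. RBM46 (41 nt), EGFEM1P (102 nt) and WDR74 (178 nt) did not. Genes without a U2 copy also had tall footprints in that range, for example 51 nt at 44 tags on chromosome 4.

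**Figure D4:**
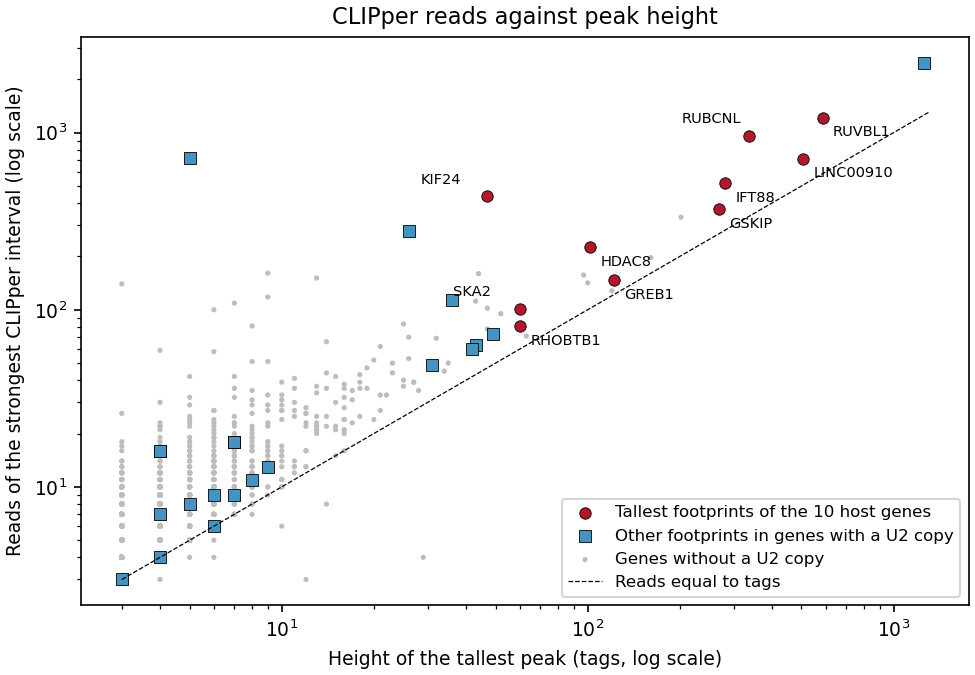
Height of the tallest peak in tags against reads of the strongest CLIPper interval, both on log scales, for footprints of the height list with at least 1 read, with a dashed line where reads equal tags. Red circles are the tallest footprints of the 10 host genes, blue squares other footprints in genes that contain a U2 copy, and grey points the rest. All 10 host genes lie above the line, with KIF24 farthest from it at 437 reads and 47 tags.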

How the data were processed

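SNRPA1 irCLIP was made in 2 biological replicates of MDA-231-LM2 cells. Build hg19, cutadapt 1.10 and BWA 0.7 are named in the submitters' processing notes. One list, pooled per its file name, has a deposited signal for each interval (peak height in tags), an Entrez identifier and P. Its caller is not stated here. The other list, called with CLIPper per its file name, has a deposited p-value, an Ensembl identifier and a number of reads for each interval. All of these values were computed by the authors.

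The members and lists were chosen with earlier results of these data known. Repeated intervals were counted once. Peaks within 250 nt on a strand were chained into a footprint and CLIPper intervals within 250 nt were added. Entrez identifiers were named through the RefSeq gene table of GRCh38.p14 (1278 of 1286 genes), and its promoter table gave host strands. Named besides the 10 genes were other U2 hosts with 20 tags or more, the 3 tallest genes without a U2 copy and the 5 genes most alike. The code of the footprint rule was checked on simulated data and recovered 200 of 200 loci. Each simulated locus had a single peak placed exactly on its strongest interval, and its intervals never overlapped. The real footprints are less simple, so this checks the code and not the rule. No cell type markers were used, since peak lists do not measure expression. Python 3.11.15, numpy 2.4.6, scipy 1.17.1 and matplotlib 3.10.9 were used. Alternatives covered the window, the CLIPper p, joining, identifiers, the summit and the height threshold.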

Additional observations from a re-analysis of the deposited data

How the results depend on the processing

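With a window of 100 or 500 nt, or with CLIPper p under 1e-5, the medians over the 10 genes of interval number, span, place of the maximum and reads were identical, and with height-list P under 1e-5 so was the median height. The median of 5.5 intervals fell to 1 when touching intervals were joined and to 3.5 with 1 identifier per footprint. The median place of the maximum, 32.3 nt from the 5′ edge, was 41.8 nt by reads per nt and 25.5 nt by the summit that the file marks. At the main setting the maximum lay at 17.5 to 32.5 nt in narrow footprints and 89.5 to 120.5 nt in wide ones. A single median thus stands for neither size. CLIPper intervals lay on the opposite strand within 250 nt in 0 of the 10 genes and within 500 nt in 0, against 10 on the same strand. Of genes without a U2 copy, 31 had 20 tags or more, 7 had 50 or more and 108 had 10 or more, and the share with at least 3 intervals was 38.7%, 71.4% and 14.8%, so a comparison of interval number depends on height. The identifier, summit and 500 nt strand settings were added with the values known. Depth is unknown. No paired analysis was possible because there is only 1 group. Replicates could not be left out in turn, as both lists merge them.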
